A study of Mus musculus with 19 samples.

Results

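Expression of the genes for glucose uptake, glycolysis, lactate handling and the response to low oxygen was examined in retinal microglia, the resident macrophages of the retina. The 34 genes were listed by symbol as the transporters, enzymes and regulators of these steps. All 34 were among the 27299 genes of the deposited table, and the rule that selects them uses symbols and no measured value. The list itself was chosen with earlier results of these data known, so shares of changed members describe this list only. By role they comprised 3 glucose transporters, 3 hexokinases, 9 genes of upper glycolysis, 6 of lower glycolysis, 6 of lactate metabolism and the kinases of pyruvate dehydrogenase, and 7 regulators and targets of the hypoxia response.

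The study used a mouse model of choroidal neovascularization (CNV) made by laser, in which an argon laser breaks the membrane beneath the retinal pigment epithelium and vessels grow in from the choroid. Microglia were taken on day 3 after 6 burns per eye (CNV d3, 6 samples) and from unlasered mice (control, 6 samples). The labels name C57BL/6J mice, and the methods name Cx3cr1 GFP/+ mice, which carry a green fluorescent protein in place of 1 copy of the fractalkine receptor gene. This allele is then shared by both groups. The labels and methods give an age of 8 weeks for both groups. The 6 weeks in a scheme caption of the study belongs to reporter mice at tamoxifen treatment, in another experiment. Cells were sorted as CD11b+, CX3CR1+, Ly6C- and Ly6G-, with CD45 given as positive in the labels and as low in the methods. The sources used here do not say whether each sample is a separate mouse or a pool, so p-values measure only the spread between these samples.

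Glycolysis splits glucose into pyruvate. Hexokinase and phosphofructokinase are the committed early steps, while the enzymes from glyceraldehyde-3-phosphate dehydrogenase to pyruvate kinase yield the ATP. Lactate dehydrogenase turns pyruvate into lactate, which leaves the cell through monocarboxylate transporters. Macrophages raise this flux upon activation, and the transcription factor HIF-1, stabilised when oxygen is low, drives many of the same genes through the core motif ACGTG or GCGTG.

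The 250 bases before the RefSeq start of 5 members are printed below to show where this motif lies, on build GRCm38.p6, 5′ to 3′ on the strand of the gene, with ACGTG and GCGTG on either strand in capitals. Ldha and Pgk1 were chosen as increased members that hold ACGTG, Tpi1 as an increased member without a match, Slc2a1 as the decreased member, and Bnip3 as a HIF-1 target whose RNA did not pass the test.
Ldha, chr7:46845554-46845803, + strand: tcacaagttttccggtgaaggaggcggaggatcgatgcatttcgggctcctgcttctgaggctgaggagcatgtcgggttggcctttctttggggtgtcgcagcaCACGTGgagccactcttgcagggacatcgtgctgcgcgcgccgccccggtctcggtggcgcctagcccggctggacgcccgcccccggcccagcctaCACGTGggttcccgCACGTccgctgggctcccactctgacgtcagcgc
Pgk1, chrX:106186850-106187099, + strand: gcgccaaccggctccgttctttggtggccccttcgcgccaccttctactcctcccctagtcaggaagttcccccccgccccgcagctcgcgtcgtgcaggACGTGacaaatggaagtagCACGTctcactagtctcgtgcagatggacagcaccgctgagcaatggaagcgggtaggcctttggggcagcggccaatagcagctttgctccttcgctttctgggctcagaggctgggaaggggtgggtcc
Tpi1, chr6:124814159-124814408, - strand: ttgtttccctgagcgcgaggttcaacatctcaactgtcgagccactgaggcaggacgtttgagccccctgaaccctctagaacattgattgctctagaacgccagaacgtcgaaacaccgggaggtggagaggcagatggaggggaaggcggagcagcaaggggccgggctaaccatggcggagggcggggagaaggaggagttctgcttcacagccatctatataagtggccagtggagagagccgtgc
Slc2a1, chr4:119108495-119108744, + strand: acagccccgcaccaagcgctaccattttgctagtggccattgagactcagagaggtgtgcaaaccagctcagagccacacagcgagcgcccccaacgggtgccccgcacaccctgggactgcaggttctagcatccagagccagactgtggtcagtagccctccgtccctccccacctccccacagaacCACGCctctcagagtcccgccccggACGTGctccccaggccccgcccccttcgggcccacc
Bnip3, chr7:138909507-138909756, - strand: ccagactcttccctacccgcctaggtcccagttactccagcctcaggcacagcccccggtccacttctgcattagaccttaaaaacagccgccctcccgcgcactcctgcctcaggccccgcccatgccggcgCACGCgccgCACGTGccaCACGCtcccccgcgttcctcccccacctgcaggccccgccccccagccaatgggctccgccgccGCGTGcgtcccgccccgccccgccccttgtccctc

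The printed Ldha window held 3 stretches with ACGTG and the Pgk1 window held 2. The window before the other RefSeq start of Ldha held no ACGTG and 1 GCGTG. The printed windows of Ldha and Pgk1 touched no exon of their genes in Gencode M21. That of Ldha lay inside the annotated gene, which starts upstream at chr7:46841475. The windows of Tpi1, Slc2a1 and Bnip3 held 138, 34 and 13 bases of annotated exon of these genes, because Gencode places some starts further upstream. RefSeq windows were found for 33 members (46 windows, as some have several starts) and for Slc2a3 none was used. ACGTG was in 23 of these 46 windows, and in 16.6% of all 32851 windows and 22.6% of the 10018 windows of genes with a mean of at least 100 normalized counts. ACGTG or GCGTG was in 82.6% of the windows of the members, against 38.6% of all windows and 57.3% of those of the more abundant genes. Among members with a window, ACGTG was found in 8 of 13 that increased, in the 1 that decreased and in 11 of 19 that did not pass the test. In 6 members a match lay within CACGTG, the E-box bound by other factors, among them Ldha, Slc16a1, Hif1a and Bnip3. A match is a string in a window and not a measured binding site.

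Values are normalized counts, that is, reads per gene divided by the size factor of the sample. The samples held between 10963178 and 29523018 reads on genes, and every control sample was shallower than every CNV d3 sample. A single read was worth between 0.739 and 1.99 normalized counts. The microglial genes P2ry12, Tmem119 and Cx3cr1 were abundant in all 12 samples and the neutrophil list stayed at or below 26.4 normalized counts. Yet P2ry12, Tmem119 and Cx3cr1 were each lower in CNV d3, with groups that did not overlap (log2 fold changes -1.65, -1.06 and -0.84). The median log2 fold change of all genes was 0.15, and 0.06 for the 9713 genes with a mean of at least 100 normalized counts, a set that holds 33 of the 34 members.

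In CNV d3, 13 of the 34 members were increased and 1 was decreased (limma on log2(normalized counts + 1), Benjamini-Hochberg adjusted p under 0.05 over all genes). With upper quartile normalization 11 were increased and 3 decreased, Pdk3 and Hif1a no longer passing and Hk2 and P4ha1 passing as decreased. Of all genes, 12.9% changed, 8.29% upward and 4.57% downward. Of the 9713 more abundant genes, 15.3% were increased and 10.8% decreased. The median log2 fold change was 0.55 over the members. In 9 members all CNV d3 values lay above all control values and in 1 all lay below, where 4.64% and 2.83% of all genes were so separated. Only Slc2a6 was a DEG by the threshold of the study, an absolute log2 fold change above 1.5 with adjusted p under 0.05. Of all genes, 3.91% were increased DEG and 1.07% decreased DEG. In exact permutation tests of single members, two-sided and not adjusted for the 34 members, 22 had p under 0.05, where 22.5% of all genes did, and 10 had the smallest p that 6 against 6 samples allow (0.00216). Full separation of the groups fixes this p, so it adds nothing to the separation. These 10 were the separated members, namely Slc2a1, Slc2a6, Gpi1, Tpi1, Gapdh, Pgk1, Pgam1, Eno1, Pkm and Ldha. They also passed the adjusted test in all 26 alternative analyses, which include thinning all samples to the depth of the shallowest.

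**Figure D1:**
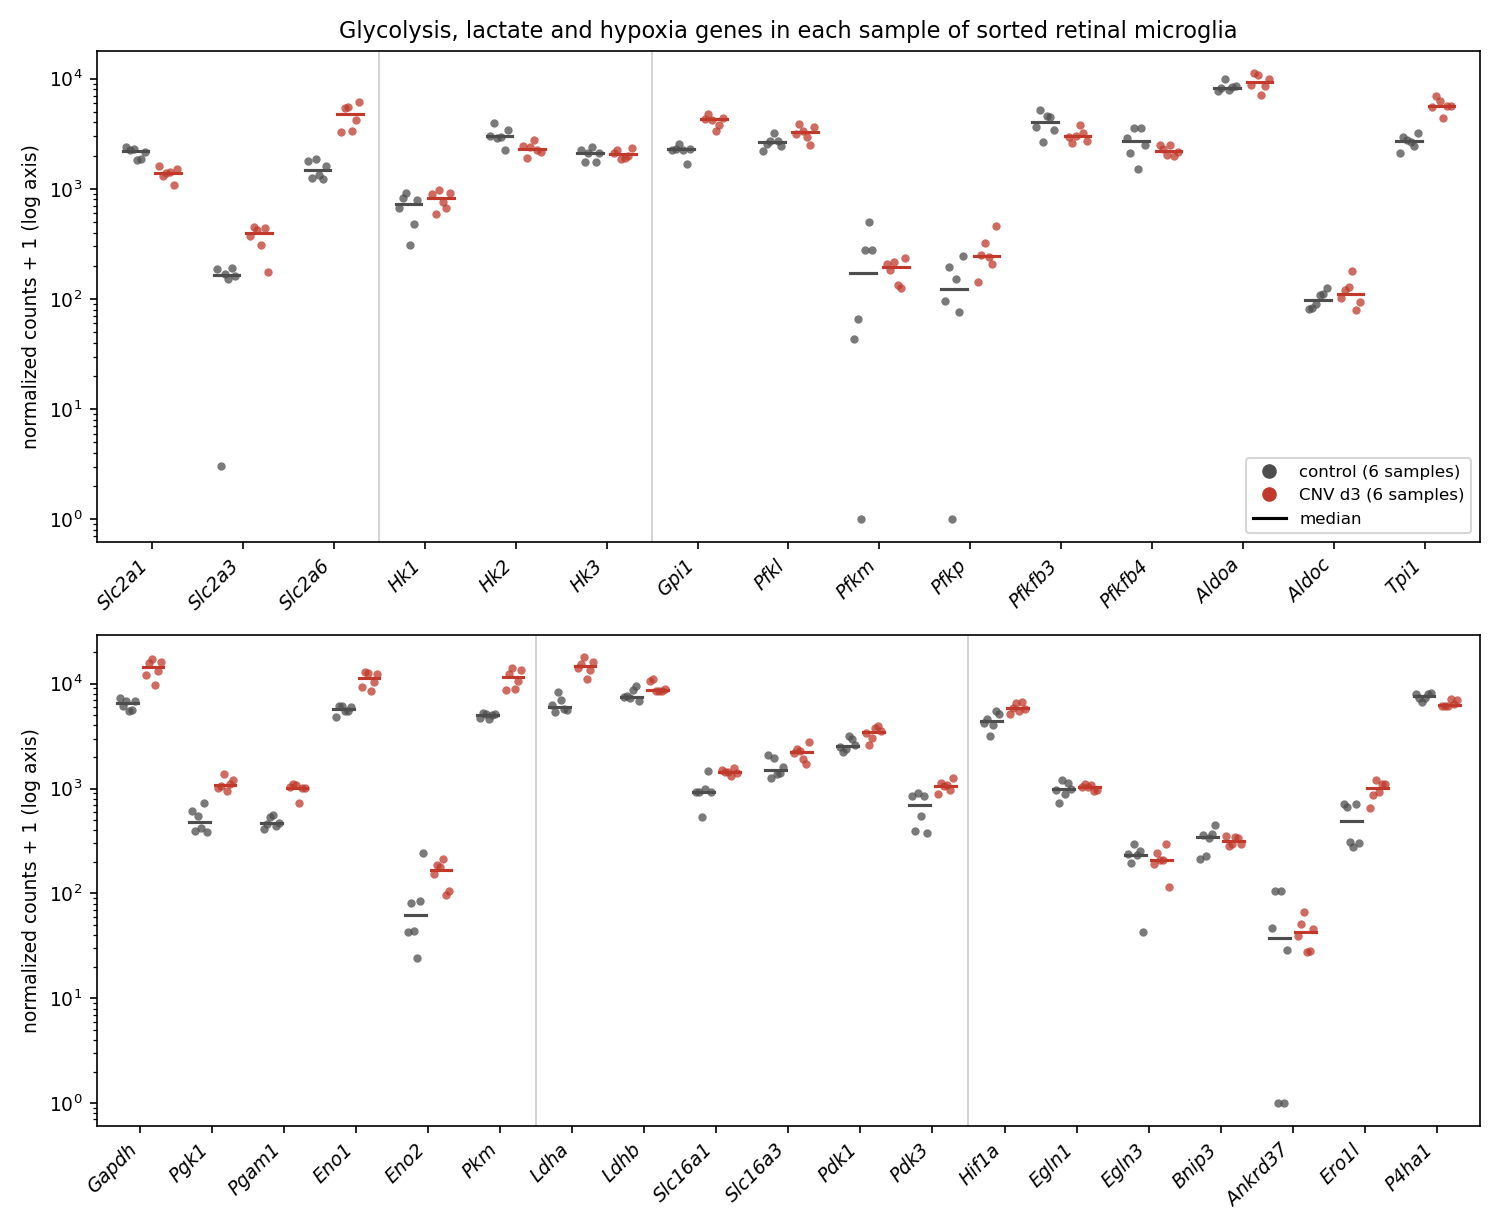
Normalized counts + 1 (log axis) of the 34 members in each of 6 control (grey) and 6 CNV d3 samples (red), with the group median as a bar and vertical lines between roles. The red and grey points separate for Slc2a1, Slc2a6, Gpi1, Tpi1, Gapdh, Pgk1, Pgam1, Eno1, Pkm and Ldha, and single control samples lie far below their group in Slc2a3, Pfkm, Pfkp and Egln3.

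Glucose transporters changed in opposite directions. Slc2a1 (GLUT1), the transporter for basal uptake in most cells, lay between 1831 and 2399 normalized counts in control (median 2215) and between 1092 and 1591 in CNV d3 (median 1402). The highest CNV d3 value was below the lowest control value, and the log2 fold change was -0.63 ± 0.12 (SE, n = 6 and 6, limma adjusted p = 0.00198). Slc2a6 (GLUT6), a transporter of inner membranes that is prominent in activated macrophages, lay between 1213 and 1871 in control (median 1465) and between 3243 and 6151 in CNV d3 (median 4813). Its groups did not overlap, and the log2 fold change was 1.61 ± 0.18 (limma adjusted p = 4.96e-05). CNV d3 replicates 1 and 4 were the lowest of their group. Per kilobase of annotated exon, mean Slc2a1 was 609 and Slc2a6 was 469 normalized counts in control, and 394 and 1450 in CNV d3. The Slc2a6 to Slc2a1 ratio within a sample was 0.704 ± 0.0921 (SD, n = 6) in control and 3.42 ± 0.956 in CNV d3.

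Slc2a3 (GLUT3), a high-affinity transporter of neurons and leukocytes, lay between 2.02 and 189.7 in control (median 164) and between 174 and 444 in CNV d3 (median 393). The lowest CNV d3 sample lay below 2 control samples, and control replicate 2 stood at 2.02, far below the 151 of the next sample. The log2 fold change of 1.97 ± 0.84 did not pass (limma adjusted p = 0.151). Without control replicate 2 it was 1.00 and passed (limma adjusted p = 0.021), so the call rests on that library.

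No hexokinase, the enzymes that trap glucose in the cell, passed the test. Hk2, the inducible isoform, lay between 2269 and 3949 in control (median 2987) and between 1887 and 2755 in CNV d3 (median 2307). The groups overlapped, with a log2 fold change of -0.41 ± 0.13 (limma adjusted p = 0.0532). It passed as decreased without control replicate 5 (log2 fold change -0.49, limma adjusted p = 0.0162), without CNV d3 replicate 4 (-0.46, limma adjusted p = 0.0437), in DESeq2 (adjusted p = 0.0116), with the filter on low values (0.0274 in limma) and with upper quartile normalization (0.0238). Hk3, the isoform of myeloid cells, lay between 1743 and 2404 in control and between 1851 and 2323 in CNV d3, with the control range around the CNV d3 range. Its log2 fold change was 0.01 with a 95% confidence interval from -0.22 to 0.24. Hk1, the housekeeping isoform, lay between 309 and 918 in control and between 584.5 and 969 in CNV d3 (log2 fold change 0.33, interval from -0.19 to 0.85). Per kilobase of exon, Hk3 (559 normalized counts) and Hk2 (516) were near each other in control and Hk1 (77.8) was lower.

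Of the 9 genes of upper glycolysis only Gpi1 and Tpi1 increased. Gpi1, the isomerase that makes fructose-6-phosphate, lay between 1670 and 2529 in control (median 2276) and between 3343 and 4758 in CNV d3 (median 4264). Tpi1, which interconverts the triose phosphates, lay between 2088 and 3217 in control (median 2722) and between 4359 and 6952 in CNV d3 (median 5645). Neither gene had overlapping groups, and the log2 fold changes were 0.90 ± 0.11 for Gpi1 (limma adjusted p = 0.000144) and 1.09 ± 0.12 for Tpi1 (limma adjusted p = 6.58e-05).

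Phosphofructokinase is the pace-setting enzyme between them. Its liver-type subunit gene Pfkl lay between 2218 and 3201 in control (median 2631) and between 2518 and 3878 in CNV d3 (median 3248). The groups overlapped, and the log2 fold change of 0.29 had an interval from 0.04 to 0.54 (limma adjusted p = 0.133, or 0.0489 without CNV d3 replicate 5). The other subunit genes were low, with means per kilobase of exon of 58.0 for Pfkm and 9.46 for Pfkp in control against 396 for Pfkl. Pfkm was at 0 in control replicate 3 and reached 501 in another control sample, and in CNV d3 it stayed between 125 and 233. Pfkp was also at 0 in control replicate 3 and otherwise between 75.3 and 246 in control, and lay between 142 and 460.2 in CNV d3. A count of 0 in control replicate 3 allows up to 3 reads, which is 3.38 normalized counts and covers counting error only. Both log2 fold changes, 1.37 for Pfkm and 2.05 for Pfkp, had intervals that include 0, and edgeR on the reads gave -0.08 for Pfkm.

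Pfkfb3 and Pfkfb4 make and break fructose-2,6-bisphosphate, the activator of phosphofructokinase, and did not pass. Pfkfb3 lay between 2639 and 5177 in control (median 4064) and between 2594 and 3815 in CNV d3 (median 3000). The ranges overlapped over most of the CNV d3 samples. Its log2 fold change was -0.36 (interval from -0.68 to -0.04, limma adjusted p = 0.145), and without control replicate 3 it was -0.47 and passed (limma adjusted p = 0.033). Pfkfb4 had a log2 fold change of -0.21 (interval from -0.60 to 0.18). Aldolase, which cleaves the hexose, was carried by Aldoa, whose values lay between 7770 and 9870 in control (median 8254) and between 7155 and 11216 in CNV d3 (median 9366). The CNV d3 range enclosed the control range, with a log2 fold change of 0.15 (interval from -0.08 to 0.37). Aldoc, the brain isoform, did not exceed 177 in any sample.

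In lower glycolysis 5 of the 6 genes increased. Gapdh, the first enzyme of the pay-off phase, lay between 5536 and 7230 in control (median 6487) and between 9648 and 17295 in CNV d3 (median 14477). Pgk1, which makes the first ATP of this phase, lay between 387 and 724 in control (median 482) and between 938 and 1384 in CNV d3 (median 1081). No value of either gene overlapped between groups. The log2 fold change was 1.12 ± 0.13 for Gapdh (limma adjusted p = 8.56e-05) and 1.15 ± 0.18 for Pgk1 (limma adjusted p = 0.000544). In Gapdh and Pgk1, 58.4% and 68.0% of the 50-base windows also occur in other annotated transcripts, 215 of them pseudogenes for Gapdh. Where reads from these windows were placed was not examined.

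Pgam1, phosphoglycerate mutase, lay between 414 and 563 in control (median 465) and between 732 and 1096 in CNV d3 (median 1018). Eno1, the ubiquitous enolase, lay between 4819 and 6141 in control (median 5723) and between 8571 and 12834 in CNV d3 (median 11385). Pkm, pyruvate kinase, lay between 4622 and 5245 in control (median 5067) and between 8799 and 14108 in CNV d3 (median 11470). In all of these the groups stood apart, and the control samples of Pkm were the tightest among the increased members (coefficient of variation 5.16%). Log2 fold changes were 1.04 ± 0.14 for Pgam1 (limma adjusted p = 0.000213), 0.95 ± 0.11 for Eno1 (limma adjusted p = 7.97e-05) and 1.16 ± 0.12 for Pkm (limma adjusted p = 2.46e-05). CNV d3 replicate 4 was the lowest of its group in Pgam1 and Eno1, and CNV d3 replicate 1 in Pkm. The table counts genes, so the M1 and M2 forms of pyruvate kinase, which are splice forms of Pkm, were not told apart.

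Eno2, the neuronal enolase, was low and lay between 23.3 and 240.3 in control (median 61.9) and between 96.1 and 210.3 in CNV d3 (median 165). The shallowest sample, control replicate 6, was the highest of all. The log2 fold change of 1.19 did not pass (limma adjusted p = 0.126), and without control replicate 6 it was 1.57 and passed (limma adjusted p = 0.019), so that Eno2 then also counted as a DEG. Per kilobase of exon, Eno2 was at 18.2 normalized counts in control where Eno1 was at 1052.

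Of the subunits of lactate dehydrogenase, Ldha increased and Ldhb did not pass. Ldha, which favours lactate production, lay between 5315 and 8389 in control (median 5999) and between 11000 and 17969 in CNV d3 (median 14723). The groups did not overlap and the log2 fold change was 1.21 ± 0.13 (limma adjusted p = 3.88e-05). Ldhb, whose tetramers favour the use of lactate, lay between 6764 and 9493 in control (median 7532) and between 8457 and 10996 in CNV d3 (median 8741). Its groups overlapped, with a log2 fold change of 0.25 ± 0.10 (limma adjusted p = 0.125). On 11 samples, without control replicate 5, Ldhb passed in edgeR (adjusted p = 0.0447) and DESeq2 (0.0163). The Ldha to Ldhb ratio was 0.819 ± 0.183 (SD, n = 6) in control and 1.58 ± 0.318 in CNV d3.

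Ratios between members within a sample do not depend on the scaling. The 6 ratios formed here, with Slc2a6 to Slc2a1 and Ldha to Ldhb among them, were chosen after the values were seen and are a description with no test. Gapdh to Aldoa was 0.758 ± 0.0948 (SD, n = 6) in control and 1.48 ± 0.126 in CNV d3. Eno1 to Aldoa was 0.672 ± 0.0531 and 1.17 ± 0.0680. Gapdh to Hk2 was 2.12 ± 0.368 and 6.26 ± 1.83. Pkm to Pfkl was 1.91 ± 0.252 and 3.53 ± 0.630.

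**Figure D2:**
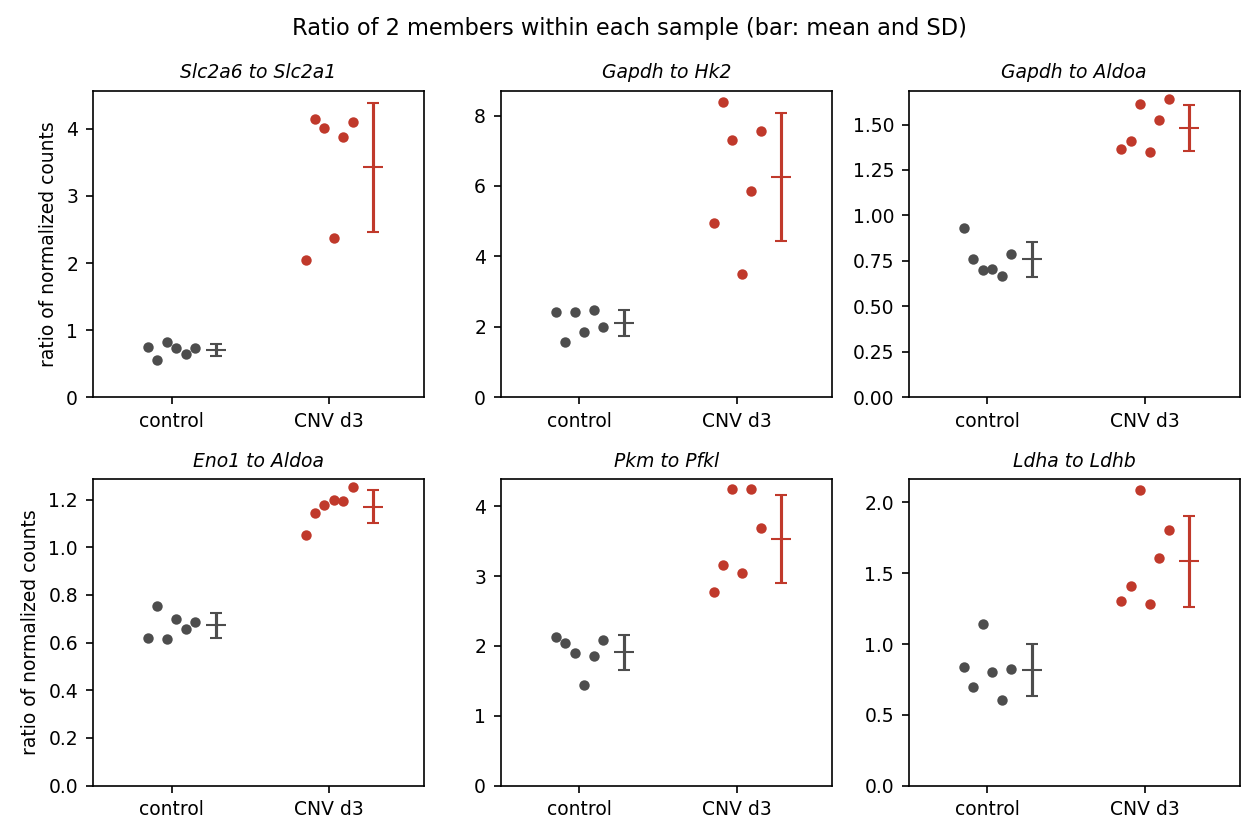
Ratio of the normalized counts of 2 members within each of 6 control (grey) and 6 CNV d3 (red) samples, with mean and SD beside the points and axes starting at 0. The ratios were chosen after the values were seen. In all 6 panels the red points lie above the grey ones, and for Slc2a6 to Slc2a1 CNV d3 replicates 1 and 4 lie at 2.04 and 2.37 below the other red points.

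Of the 2 lactate transporters and the 2 kinases of pyruvate dehydrogenase, Slc16a1 and Pdk3 increased and Slc16a3 and Pdk1 did not pass. Slc16a1 (MCT1) lay between 537 and 1457 in control (median 928) and between 1303 and 1567 in CNV d3 (median 1430). Control replicate 5 reached into the CNV d3 range, the other control samples did not. The log2 fold change was 0.64 ± 0.18 (limma adjusted p = 0.0289), and the call was lost in 10 of the 12 analyses without 1 sample, with limma adjusted p up to 0.0785, and held without control replicate 3 or 5. It was also lost in limma with no trend (0.0675). Slc16a3 (MCT4), the exporter of cells with high glycolysis, lay between 1274 and 2096 in control (median 1510) and between 1716 and 2794 in CNV d3 (median 2246). Its groups overlapped and its log2 fold change of 0.46 did not pass (limma adjusted p = 0.06). It passed in edgeR (adjusted p = 0.045), DESeq2 (0.0216) and voom (0.0438), with TMM (0.0464 in limma), total-read scaling (0.0468) or the filter on low values (0.032), and without control replicate 1 (0.0343 in limma), control replicate 3 (0.0451) or CNV d3 replicate 5 (0.0463).

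Pdk3 lay between 379 and 909 in control (median 698) and between 879.9 and 1270 in CNV d3 (median 1065). Only control replicate 3 reached above the lowest CNV d3 sample, and the log2 fold change was 0.78 ± 0.23 (limma adjusted p = 0.0343). The call was lost in 9 of the 12 analyses without 1 sample (limma adjusted p up to 0.108) and held without control replicate 1, 3 or 5. It was also lost with upper quartile normalization, in limma with no trend, with the replicate block and after thinning (0.0546 to 0.0812). Pdk1, a classical HIF-1 target, lay between 2254 and 3150 in control (median 2563) and between 2575 and 3914 in CNV d3 (median 3486). The groups overlapped, with a log2 fold change of 0.35 (limma adjusted p = 0.0721). It passed without control replicate 4 (limma adjusted p = 0.0468) or CNV d3 replicate 2 (0.0241), with total-read scaling (0.0486), the filter on low values (0.0377) or the replicate block (0.0408), and in DESeq2 (0.0213). On 11 samples it passed in edgeR (0.0364) and DESeq2 (0.0174).

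Among the regulators and targets of the hypoxia response, Hif1a and Ero1l increased and the other 5 did not pass. Hif1a, the oxygen-regulated subunit of HIF-1, which is controlled mainly as a protein, lay between 3166 and 5519 in control (median 4423) and between 5192 and 6662 in CNV d3 (median 5808). The groups overlapped at their edges and the log2 fold change was 0.43 ± 0.12 (limma adjusted p = 0.0325). The call was lost in 8 of the 12 analyses without 1 sample (limma adjusted p up to 0.0922) and held without control replicate 3, 5 or 6 or CNV d3 replicate 1. It was also lost with upper quartile normalization, in limma with no trend and after thinning (0.0541 to 0.112). Ero1l, an oxidase for disulfide bonds in the endoplasmic reticulum, lay between 279 and 718 in control (median 491) and between 651 and 1197 in CNV d3 (median 1017). Its control samples split into 3 that did not exceed 312 and 3 of at least 670.2, and only the latter reached into the CNV d3 range. Its log2 fold change was 1.07 ± 0.27 (limma adjusted p = 0.0168), lost in 7 of the 12 analyses without 1 sample (up to 0.0673) and held without control replicate 1, 2, 4 or 5 or CNV d3 replicate 1.

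Egln1 and Egln3 encode prolyl hydroxylases that mark HIF-1 for destruction, and Egln3 is itself a HIF target. Egln1 lay between 726 and 1198 in control and between 953 and 1111 in CNV d3, a narrower range inside the control range (log2 fold change 0.09, interval from -0.19 to 0.36). Egln3 lay between 41.7 and 297 in control and between 114 and 298 in CNV d3, with control replicate 6 as the lowest. Its log2 fold change was 0.16 (interval from -0.73 to 1.06) and turned to -0.25 without control replicate 6. Bnip3, a mitophagy receptor whose window is printed above, lay between 210.4 and 453 in control (median 347) and between 280.1 and 353 in CNV d3 (median 318). Its CNV d3 range lay inside the control range and its log2 fold change was 0.01 with an interval from -0.43 to 0.45.

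P4ha1, a collagen prolyl hydroxylase, lay between 6719 and 8224 in control (median 7656) and between 6076 and 7111 in CNV d3 (median 6260). The groups overlapped and the log2 fold change of -0.23 did not pass (limma adjusted p = 0.0624). It passed as decreased without control replicate 3 (limma adjusted p = 0.018), CNV d3 replicate 4 (0.0278) or CNV d3 replicate 6 (0.0395). It also passed in DESeq2 (adjusted p = 0.00856) and voom (0.0348), with the filter on low values (0.0309 in limma), with upper quartile normalization (0.0127) and after thinning (0.0344). Ankrd37, a small HIF target gene, was at 0 in control replicates 3 and 5 and did not exceed 106 in any sample.

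**Figure D3:**
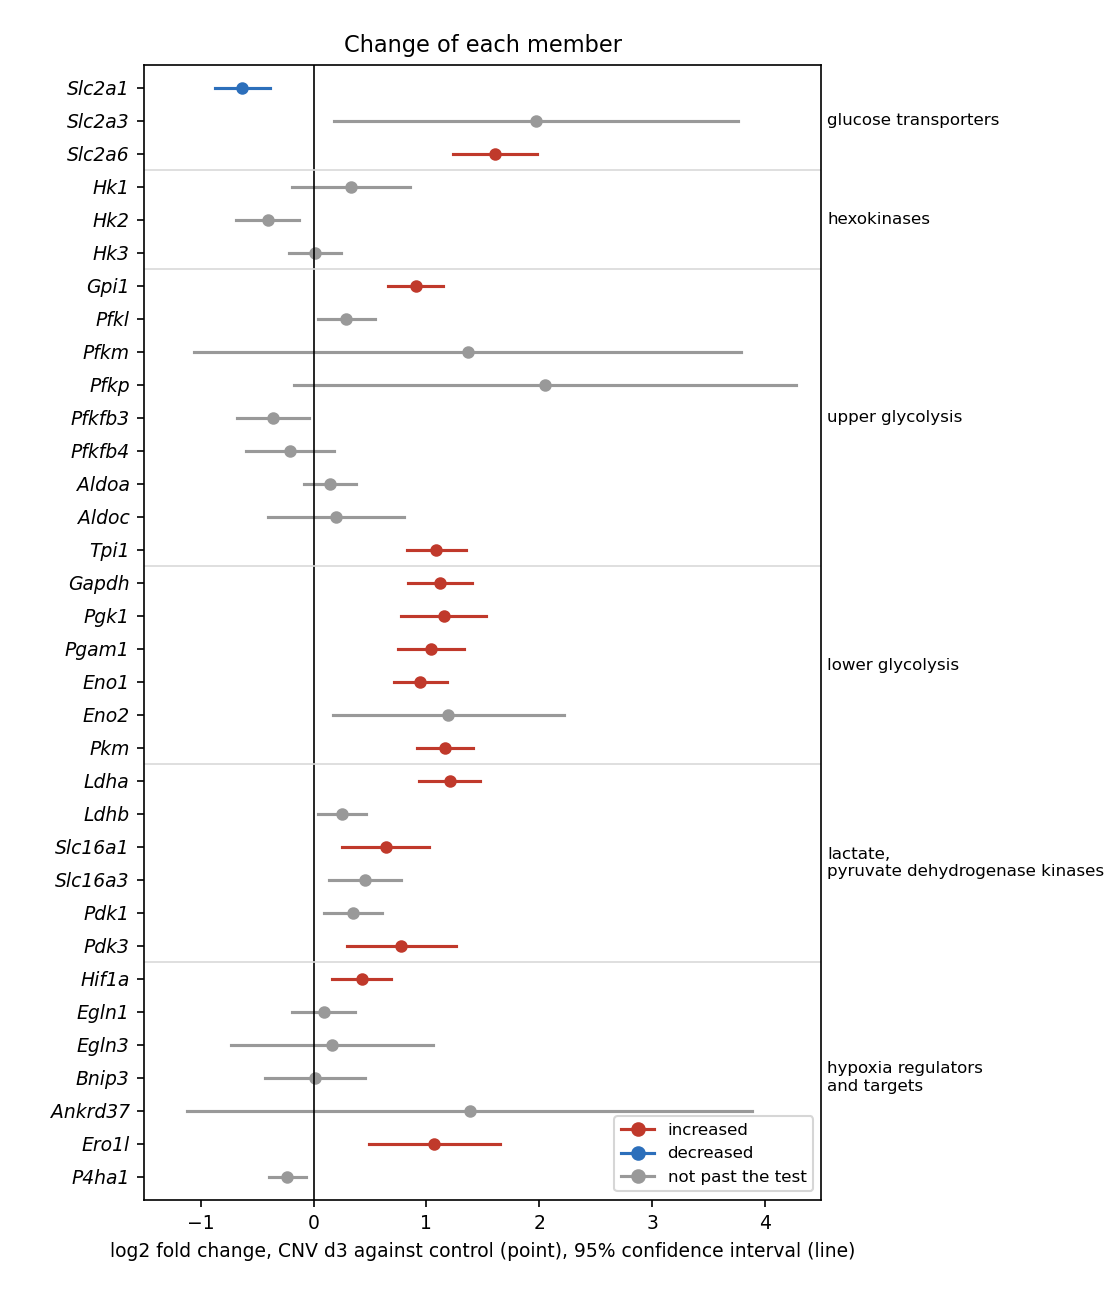
Log2 fold change of CNV d3 against control for the 34 members (point) with 95% confidence interval (line) from limma, 6 samples per group, in the order of their roles. Red members increased and the blue one decreased at adjusted p under 0.05. Gpi1 and the row from Tpi1 to Ldha, except Eno2, lie between 0.90 and 1.21 with short intervals, while Slc2a3, Pfkm, Pfkp and Ankrd37 have wide intervals.

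The 8 separated enzymes from Gpi1 to Ldha moved by similar amounts, between 1.87 and 2.31 times on the scale of the fit. Their summed value, a grouping of members already seen to be separated, which fixes that their sums do not overlap, lay between 27121 and 32938 normalized counts in control and between 47513 and 74933 in CNV d3. CNV d3 replicate 4 was the lowest of its group in 8 of the 13 increased members, and CNV d3 replicate 3 was the highest in 5. All 34 members together took 0.380% to 0.394% of the counts in control and 0.502% to 0.661% in CNV d3.

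Some marker genes of monocytes and all listed genes of cell division also increased. The monocyte list (8 genes, 4 increased) summed to between 89.1 and 332 normalized counts in control and between 4325 and 50166 in CNV d3, mostly from Fn1. Of its defining markers, Ly6c2 was at 0 in all 6 control samples and had a mean of 12.9 in CNV d3, and Ccr2 had means of 34.2 and 664. The cell division list (10 of 10 increased) summed to between 97.4 and 1203 in control and between 9286 and 22966 in CNV d3. The microglia list (7 of 10 decreased) summed to between 1354511 and 1524984 in control and between 754090 and 1135277 in CNV d3. Within CNV d3, from highest to lowest, the 8 enzymes were ordered as replicates 3, 6, 2, 5, 1 and 4. The monocyte list was ordered as replicates 3, 6, 2, 5, 4 and 1, and the cell division list as 6, 3, 5, 2, 4 and 1. The order of the monocyte list was that of Fn1, which the study reports as increased in CNV-associated microglia. Ccr2 was ordered as 6, 3, 5, 2, 4 and 1, and Ly6c2 as 3, 6, 2, 1, 5 and 4. The microglia list was ordered as 1, 4, 5, 2, 6 and 3.

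The photoreceptor list (0 of 11 changed) summed to between 860 and 7794 in control and between 689 and 13662 in CNV d3, and was highest in CNV d3 replicates 4 and 6. The Mueller glia list (7 genes, 3 increased, 1 decreased) was mostly Apoe, which microglia also express, and summed to between 19454 and 41159 in control and between 57393 and 99436 in CNV d3. Endothelial genes (5 measured, 1 increased, 1 decreased) summed to between 500.3 and 989.8 in control and between 457 and 965 in CNV d3. No gene of the retinal pigment epithelium list (5 measured, at most 285), the neutrophil list (5 measured, at most 26.4) or the red blood cell list (4 measured, at most 15.2) changed. S100a9, Camp and Ngp were at 0 in all control samples. In bulk samples, more RNA per cell and a larger share of cells that express a gene cannot be told apart. The part of these other cells and of dividing cells in the changes of the members was not tested.

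**Figure D4:**
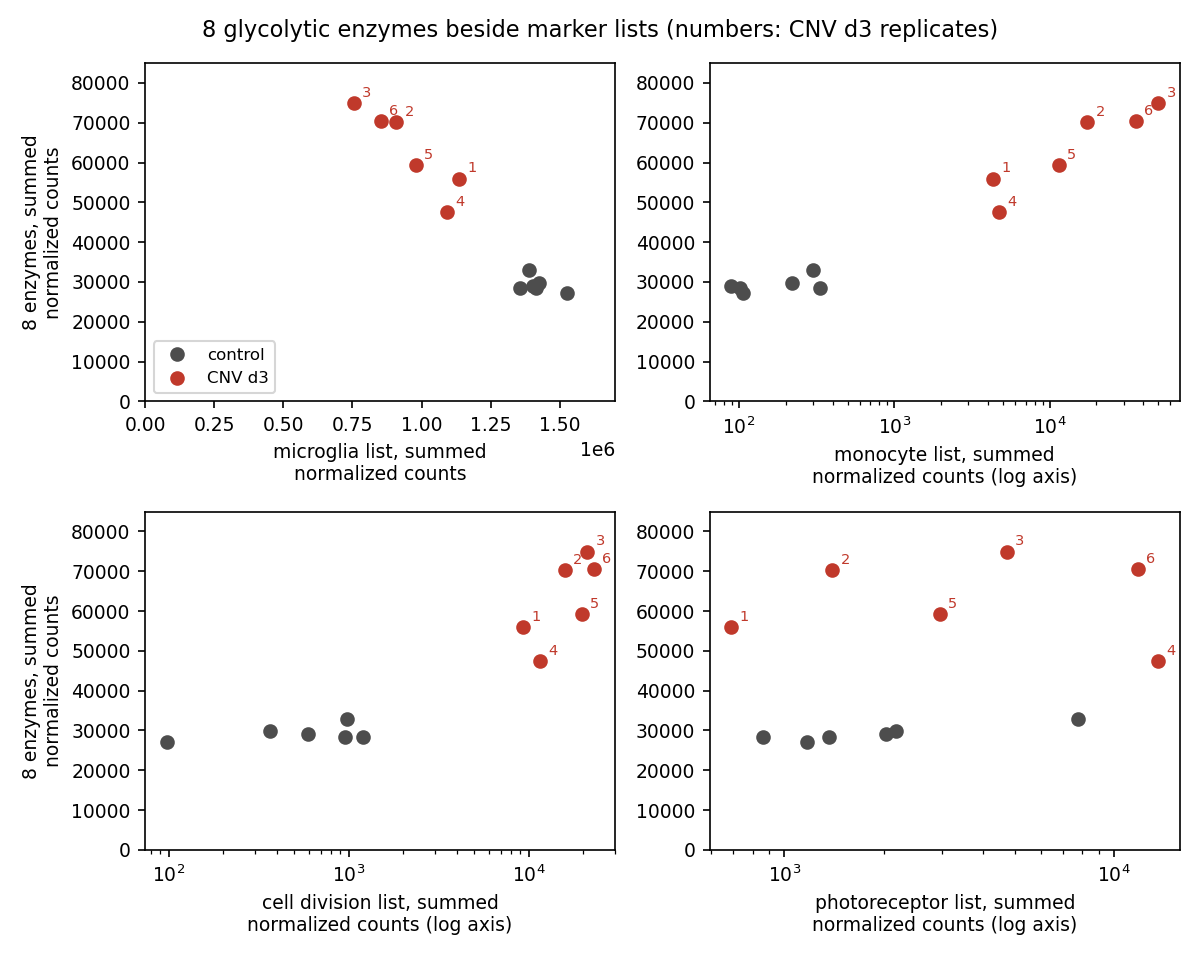
Summed normalized counts of 8 glycolytic enzymes (Gpi1, Tpi1, Gapdh, Pgk1, Pgam1, Eno1, Pkm, Ldha) on the vertical axis against the summed counts of 4 marker lists, 1 point per sample (grey control, red CNV d3, numbers give CNV d3 replicates). The 6 CNV d3 samples lie between 47513 and 74933 and above all control samples, which follows from the choice of separated enzymes. Apart from the order of replicates 1 and 4, those with more monocyte-list counts, mostly from Fn1, and fewer microglia-list counts lie higher. The monocyte markers Ccr2 and Ly6c2 ordered the replicates differently from this list. From highest to lowest, the replicates are ordered 6, 3, 5, 2, 4 and 1 by the cell division list, and 4, 6, 3, 5, 2 and 1 by the photoreceptor list.

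Copies and overlaps bear on some members, as the authors' counting ignored strand and left out reads that map to several places. The share of 50-base windows that also occur in another annotated transcript was 49.5% for Eno1, 41.5% for Pgam1, 24.5% for Gpi1, 23.7% for Pkm, 20.99% for Ldhb and 10.4% for Ldha, and 59.1% for Bnip3. Reads from these windows that mapped to several places were left out of the counts, so the levels of these genes are uncertain. Of the transcripts that share most windows with a member and had counts of their own, Eno1b was at 1.27% of the counts of Eno1 and Gm26513 at 1.84% of those of Pfkm. Pfkp (15.4%) shares sequence with the overlapping gene Pitrm1, which had 391% of the counts of Pfkp and was itself increased (log2 fold change 0.85, limma adjusted p = 0.00769), and Ankrd37 (11.4%) with Lrp2bp. Slc2a1, Slc2a6, Hk2 and Hk3 had at most 1.56%. Exons of other genes on either strand covered 15.3% of the exon length of Pkm and 11.5% of that of Gpi1. For Ankrd37, Bnip3 and Pfkm this share was 26.4%, 22.3% and 10.7%. What these overlaps did to the counts was not tested.

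Of 72 further genes of glucose and oxygen metabolism, 64 were measured, 7 increased (10.9%, against 8.29% of all genes) and 2 decreased (3.12%, against 4.57%). Their median log2 fold change was 0.25, and these shares were near those of all genes. Slc2a5 (GLUT5), the fructose transporter that marks microglia, fell from 20538 ± 1514 (SD, n = 6) to 7714 ± 2235 normalized counts (log2 fold change -1.46 ± 0.15, limma adjusted p = 3.44e-05). Emb (embigin), a partner that carries monocarboxylate transporters to the membrane, rose from 9.35 ± 16.9 to 217 ± 118 (log2 fold change 5.13 ± 0.78, limma adjusted p = 0.000534). Control replicate 6 (43.7) reached into its CNV d3 range, whose lowest value was 42.8. Bsg (basigin), the other such partner, did not pass (log2 fold change 0.10, limma adjusted p = 0.47). Its name, like that of Vegfa below, was chosen after the values were seen.

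Taldo1, of the non-oxidative pentose phosphate branch, was the only 1 of 8 genes of that pathway that passed (log2 fold change 0.62 ± 0.11, limma adjusted p = 0.00155). Its groups did not overlap. Tigar, a phosphatase that lowers fructose-2,6-bisphosphate, had a log2 fold change of 0.94 ± 0.26 (limma adjusted p = 0.0271) and lost the call in edgeR (adjusted p = 0.0779) and with the replicate block (0.0771 in limma). Dld, a subunit of pyruvate dehydrogenase, had 0.36 ± 0.10 (limma adjusted p = 0.0333). It lost the call with upper quartile normalization, in limma with no trend and with the replicate block (0.0848 to 0.109).

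Among these, 26 hypoxia-related genes were measured, of which 3 increased (11.5%) and 1 decreased (3.85%), again near the 8.29% and 4.57% of all genes. Bhlhe40, a transcription repressor induced by hypoxia and by cytokines, rose from 103 ± 77.9 to 681 ± 358 normalized counts, with groups that did not overlap (log2 fold change 3.09 ± 0.61, limma adjusted p = 0.00335). Mif, a cytokine, had a log2 fold change of 0.80 ± 0.17 (limma adjusted p = 0.00466). P4ha2 was at 0 in 4 control samples and had a mean of 36.6 in CNV d3, and its call (limma adjusted p = 0.0263) was absent in edgeR (0.352) and DESeq2 (0.354) and lost in 9 of the 12 analyses without 1 sample. It held without control replicate 2 or 6 or CNV d3 replicate 4. Cited2, which competes with HIF-1 for its coactivator, fell by 0.60 on the log2 scale (limma adjusted p = 0.00408). Vegfa, the vascular growth factor induced by HIF-1, had a mean of 0.179 ± 0.438 in control and 11.5 ± 10.96 normalized counts in CNV d3, and did not pass in limma (adjusted p = 0.0629) but did in edgeR (adjusted p = 0.0331) and DESeq2 (0.0184). It also passed in limma without CNV d3 replicate 2 or 3.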

How the data were processed

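RNA from sorted retinal microglia (6 CNV d3 and 6 control samples) was amplified by template switching and PCR and sequenced as single reads by the authors. They mapped reads with STAR 2.7.2b to GRCm38.p6 with Gencode M25, counted reads per gene with featureCounts 1.6.4 without strand and without multi-mapped reads, and dropped genes that had no read in any sample. Each deposited value (signal) is a count divided by the DESeq2 1.22.2 size factor of the sample. GEO lists 19 samples, since 7 of the 12 were entered in 2 parts, and the table holds 1 column for each of the 12. These 7 were all 6 control samples and CNV d3 replicate 4. Entry in 2 parts thus nearly follows the groups, so anything tied to it cannot be told apart from the laser. The labels do not say what the parts stand for. Deposited group means, log2 fold changes and adjusted p-values of the authors were not used.

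The members and gene lists were chosen with earlier results of these data known. The main test was limma 3.58.1 in R 4.3.3 with a mean-variance trend on log2(value + 1) over 27299 genes with Benjamini-Hochberg adjustment, no filter and no covariate. "Increased" and "decreased" mean adjusted p under 0.05. A DEG also had an absolute log2 fold change above 1.5, the threshold of the study. Single members were compared by exact permutation of 924 labelings. Counts were recovered as whole multiples of the smallest value of each sample (100% of values in all samples within a tolerance of 1e-06), and edgeR 4.0.16, DESeq2 1.42.0 and voom were run on them. For control replicate 5, whose size factor is near 1, this step is less sure, so the count tools were also run without it. Count intervals and floors of 3 reads cover counting error only, as PCR copies were not marked. The scripts were tested on simulated data.

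Every member was named, and of the other pathway genes those past the test. Exon lengths, coordinates and shared 50-base windows came from Gencode M21 on GRCm38, in transcripts only, as no genome sequence was used here. Promoter windows came from RefSeq on GRCm38.p6. Replicate numbers showed no sign of pairing the samples: deviations of same-numbered samples correlated between -0.083 and 0.084. Weak correlation does not exclude that same-numbered samples were handled together. Alternatives were TMM, upper quartile and total-read scaling, pseudocounts of 0.5 and 5, a filter of at least 10 normalized counts in at least 6 samples, limma with no trend, the count tools, a replicate block, thinning to the shallowest sample, adjusted p under 0.01, and leaving out each sample. The analyses of 11 samples with count tools were added after the data were seen.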

Additional observations from a re-analysis of the deposited data

Results flagged for a closer look

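In each group of 6 samples the lowest and highest value of each member was compared with its nearest neighbour (68 groups, log2 scale), and in 5 the gap exceeded the critical share of the range of Dixon's test for 6 samples. Chance gives about 1 in 20 such groups. Slc2a3 in control replicate 2 was at 2.02 normalized counts, where the next sample had 151. Pfkp in control replicate 3 was at 0, where the next had 75.3. Egln3 in control replicate 6, the shallowest sample, was at 41.7, where the next had 192. Gpi1 in control replicate 5 was at 1670, where the next had 2233. Pgam1 in CNV d3 replicate 4 was at 732, where the next had 1005. Calls of Gpi1 and Pgam1 held without these samples, Pfkp and Egln3 did not pass with or without them, and Slc2a3 passed only without control replicate 2.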

How the results depend on the processing

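The 10 separated members passed in all 26 alternatives. Slc16a1, Pdk3, Hif1a and Ero1l kept their direction and lost the call in some. Of the 20 members that did not pass, 9 passed in at least 1 alternative and 11 in none. Changed members numbered 14, and between 10 and 18 over all alternatives. Without 1 sample they numbered 10 to 16, DEG members 1 to 2, and other pathway genes 8 to 12. Of all genes 3511 changed, 2759 to 3774 without 1 sample and 1818 at adjusted p under 0.01. Other pathway genes numbered 9, but 15 with the filter on low values, 17 with DESeq2 and 17 with DESeq2 on 11 samples. Exact tests with p under 0.05 numbered 22, or 19 to 23 without 1 sample. With the replicate block, 14 members, 7 other pathway genes and 2860 genes changed; Pdk3, Tigar and Dld lost the call and Pdk1 gained it. Only 2 of 6 samples correlated best with their own number, so the block describes no known pairing. Some log2 fold changes near 0 turned sign: Hk3 (0.01) to -0.062 with upper quartile scaling, -0.0023 after thinning, -0.039 in DESeq2 on 11 samples and -0.034 to 0.059 without 1 sample; Bnip3 (0.01) to -0.063 with upper quartile scaling, -0.018 in edgeR, -0.030 in DESeq2 and -0.10 to 0.12 without 1 sample. Pfkm (1.37) was -0.076 in edgeR and -0.087 in DESeq2, and Ankrd37 (1.38) was -0.16 and -0.17, and -0.39 and -0.44 on 11 samples. Egln3 ranged from -0.25 to 0.33 without 1 sample. Causes were not tested. The median log2 fold change of all genes was between -0.04 and 0.23 over the alternatives. At the depth of the shallowest sample, Pdk3 and Hif1a lost the call and P4ha1 gained it.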
